A study of Mus musculus with 17 samples.

Results

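White fat cells store triglyceride in a single lipid droplet and release hormones called adipokines, and 10 of their characteristic genes were followed here in the mouse diaphragm, the muscle of breathing. The 10 were chosen by symbol from the 47643 gene symbols of the table. They were the adipokine genes Adipoq, Lep, Retn and Cfd, the lipid droplet coat genes Plin1 and Cidec, the fatty acid carrier gene Fabp4, the transcription factor gene Pparg, and the lipase genes Pnpla2 and Lipe. RNA-seq had been done on the diaphragm of 17 male C57BL/6J mice aged 4 months, with 5 Control mice, 5 Control + rFibcd1 mice, 3 LLC mice and 4 LLC + rFibcd1 mice. Control mice carried no tumor and were mock-injected into the peritoneum, and Control + rFibcd1 mice carried no tumor and were given rFibcd1, a recombinant C-terminal fragment of mouse Fibcd1, by the same route. LLC mice carried tumors grown under the skin of both flanks from Lewis lung carcinoma cells, a mouse lung cancer line, and were mock-injected. LLC + rFibcd1 mice carried the same tumors and received rFibcd1. All 17 were of one strain, sex and age, only the muscle portion of the dissected diaphragm was used, and each library came from a separate mouse. Values are TPM, the transcripts of a gene per 1000000 transcripts, a level scaled for transcript length and for depth, so that levels can be compared between genes.

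A white fat cell is formed under the control of Pparg, a nuclear receptor that binds DNA together with a retinoid X receptor, and of Cebpa. The droplet is coated by Plin1, which holds the lipases off it in the fed state, and Cidec joins small droplets into large ones. When catecholamines act on the cell, Pnpla2 removes the first fatty acid from a triglyceride and Lipe the next, and Fabp4 carries the fatty acids released. Among the hormones, adiponectin (Adipoq) acts on muscle and liver, leptin (Lep) reports the size of fat stores to the brain, resistin (Retn) is made by fat cells in mice, and Cfd encodes adipsin, a serine protease of the alternative complement pathway. Fat cells lie between muscle fibers and in the tissue around a muscle. Pnpla2, Lipe, Pparg and Fabp4 are also used by muscle, endothelial cells or macrophages, whereas Adipoq, Lep, Plin1 and Cidec are much closer to being fat cell genes.

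The sequences just before the start sites of 4 of the genes are given because the genes moved together across mice: Adipoq as the reference of the group, Plin1 as the gene nearest to it, Lep as the adipokine that departed from it, and Cfd as the gene that passed the test in a comparison. They are from RefSeq (GRCm38.p6), cut where the GENCODE M21 gene begins, and read 5′ to 3′ on the gene's strand. RefSeq start windows of 300 bases were found for 9 of the 10 genes (13 windows); none was found for Fabp4. Capitals mark CCAAT or its reverse complement in Adipoq and TTNNGCAA, a C/EBP-like motif, or its reverse complement in Plin1 and Lep. No base is in capitals in Cfd, which was searched for TTNNGCAA on both strands.
Adipoq, chr16:23146286-23146535, plus strand: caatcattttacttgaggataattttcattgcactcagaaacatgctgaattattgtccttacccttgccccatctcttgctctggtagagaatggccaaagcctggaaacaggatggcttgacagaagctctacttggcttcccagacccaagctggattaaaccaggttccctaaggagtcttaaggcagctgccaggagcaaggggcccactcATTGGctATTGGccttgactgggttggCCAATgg
Cfd, chr10:79890603-79890852, plus strand: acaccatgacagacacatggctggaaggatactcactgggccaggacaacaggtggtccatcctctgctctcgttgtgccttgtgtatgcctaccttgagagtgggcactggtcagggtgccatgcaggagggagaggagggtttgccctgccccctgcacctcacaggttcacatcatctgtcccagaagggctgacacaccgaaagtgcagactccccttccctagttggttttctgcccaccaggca
Plin1, chr7:79732904-79733026, minus strand: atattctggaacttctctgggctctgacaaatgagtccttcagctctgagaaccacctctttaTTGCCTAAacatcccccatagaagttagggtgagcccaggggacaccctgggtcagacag
Lep, chr6:29059971-29060219, plus strand: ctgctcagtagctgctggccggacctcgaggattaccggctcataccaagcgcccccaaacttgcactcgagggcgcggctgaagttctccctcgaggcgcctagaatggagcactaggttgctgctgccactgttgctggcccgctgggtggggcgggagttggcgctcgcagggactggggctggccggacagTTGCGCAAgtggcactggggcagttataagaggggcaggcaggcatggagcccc
All motifs were searched on both strands of the 32851 windows of this length. The motif TTNNGCAA was in the windows of 4 genes (Lep, Cidec, Pparg and Plin1), against 10.8% of all windows. Its palindromic form TTGCGCAA, which TTNNGCAA contains, was in that of Lep, 55 bases before the start, and in 0.18% of all windows. The window of Plin1 held a second match, like the first a reverse complement, 58 bases before its RefSeq start. This second match lies inside the GENCODE gene and is not shown. CCAAT was in windows of Adipoq and Pparg and in 37.41% of all, the nuclear receptor motif AGGTCA was in those of Pparg and in 16.26% of all, and TATAAA was in that of Pparg and in 13.62% of all. These matches describe the letters and are not binding sites.

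All 10 genes were detected in every mouse and passed the filter (1 TPM or more in 3 or more mice), as did 13305 genes in all. Adipoq lies on chromosome 16 (GRCm38, 23146536 to 23158028, plus strand) with 4 merged exons, Cfd on chromosome 10 (79890853 to 79892655, plus strand) with 5, and Retn on chromosome 8 (3655770 to 3660110, plus strand) with 5. Lep (29060220 to 29073877, plus strand), Cidec (113424634 to 113435760, minus strand) and Pparg (115360951 to 115490399, plus strand) share chromosome 6, far apart. Plin1 (79720218 to 79732903, minus strand), Lipe (25379527 to 25398710, minus strand) and Pnpla2 (141455198 to 141460743, plus strand) share chromosome 7, and Fabp4 lies on chromosome 3 (10204088 to 10208576, minus strand). All 10 are protein-coding. Exons of Lipe overlap those of 4732471J01Rik on the opposite strand, and since the sources used here do not say whether counting used strand, reads of that stretch cannot be assigned with certainty.

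Depth was even. Reading the steps between low TPM values gave an estimated 50800000 to 54600000 reads in annotated genes per library. At that depth 1 TPM in a transcript of 1000 bases was 23.93 to 26.68 reads, and Lep, the lowest of the genes, rested on 21 to 564 estimated reads per mouse. The tissue label was borne out by muscle genes, the 10 skeletal muscle markers of the fixed list adding to between 50690 and 65080 TPM per mouse.

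The 10 genes differed widely in level. Averaged over the 17 mice, Cfd (1106 TPM) and Fabp4 (1012 TPM) were the most abundant, followed by Pnpla2 (271.5 TPM), Adipoq (118 TPM), Cidec (98.7 TPM), Retn (42.2 TPM), Lipe (35.2 TPM), Plin1 (27.0 TPM), Pparg (8.40 TPM) and Lep (2.63 TPM). The ranges over mice of neighboring genes in this order overlapped, except those of Fabp4 and Pnpla2.

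The adipokine genes varied several-fold among mice of the same group. Adipoq was at 175, 145, 27.6, 50.1 and 26.4 TPM in Control mice 1 to 5, and at 192, 49.6, 40.2, 34.1 and 34.0 TPM in Control + rFibcd1 mice 1 to 5. It was at 436, 94.7 and 218 TPM in LLC mice 1 to 3, and at 125, 203, 119 and 35.4 TPM in LLC + rFibcd1 mice 1 to 4. Control mice 1 and 2 and Control + rFibcd1 mouse 1 were above LLC mouse 2, so the groups overlapped, and LLC + rFibcd1 mouse 4 was among the tumor-free mice with low levels. Between 50.1 and 94.7 TPM there was no mouse, with 8 mice below this gap and 9 above it. In a whole-tissue sample, more fat cells and more RNA per fat cell cannot be told apart.

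Cfd, which encodes adipsin, varied along with it at a higher level. It was at 1346, 1266, 251, 309 and 249 TPM in Control mice and at 2009, 417, 300, 348 and 296 TPM in Control + rFibcd1 mice. It reached 4167, 876 and 1962 TPM in LLC mice and 1127, 2336, 1119 and 421 TPM in LLC + rFibcd1 mice. The same Control mice 1 and 2 and Control + rFibcd1 mouse 1 were high, and all groups overlapped.

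Retn, the resistin gene, was at 69.4, 49.2, 11.9, 19.8 and 12.4 TPM in Control mice and at 80.1, 16.2, 17.7, 13.5 and 14.9 TPM in Control + rFibcd1 mice. It was at 132, 31.2 and 68.8 TPM in LLC mice and at 45.4, 82.7, 38.6 and 13.9 TPM in LLC + rFibcd1 mice. Its highest mouse was LLC mouse 1 and its lowest Control mouse 3.

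Lep, the leptin gene, was low and ordered the mice differently. It was at 6.70, 5.21, 0.735, 2.31 and 0.457 TPM in Control mice and at 2.25, 2.74, 0.656, 1.07 and 1.19 TPM in Control + rFibcd1 mice. It was at 6.64, 1.99 and 4.74 TPM in LLC mice and at 0.860, 5.08, 1.90 and 0.245 TPM in LLC + rFibcd1 mice. The highest value was in Control mouse 1 rather than in LLC mouse 1, and the lowest was in LLC + rFibcd1 mouse 4, a tumor-bearing mouse. Control + rFibcd1 mouse 1 and LLC + rFibcd1 mouse 1, with Adipoq at 192 and 125 TPM, held 2.25 and 0.860 TPM of Lep.

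**Figure D1:**
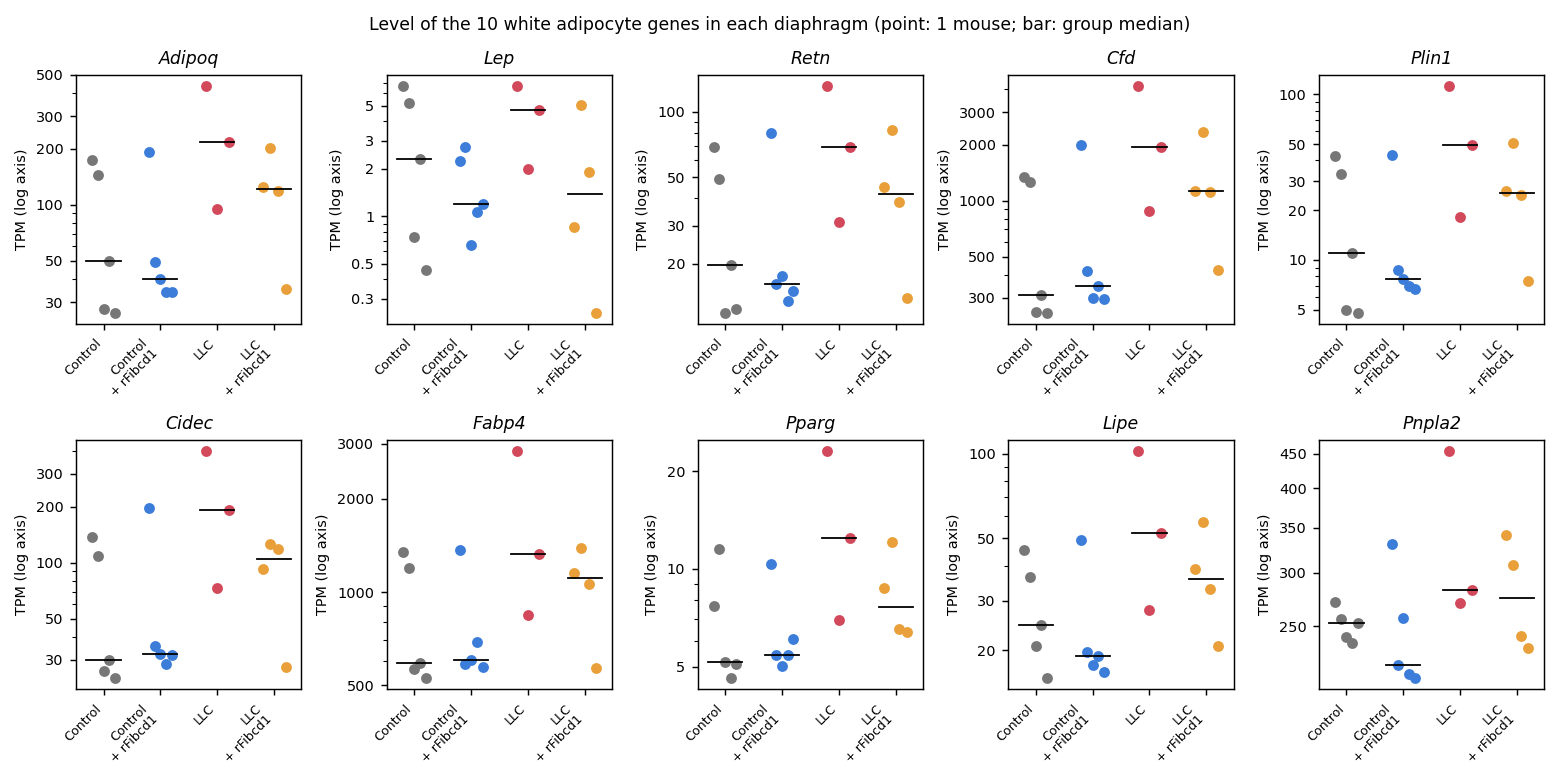
TPM of each gene (log axis) in the 17 diaphragms by group, 1 point per mouse, with a bar at the group median. In all 10 panels the points of LLC mice overlap those of Control mice, and Pnpla2 spans 2.17-fold over the mice while Lep spans 27.3-fold.

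The lipid droplet coat genes behaved as Adipoq did. Plin1, the perilipin of fat cells, was at 42.8, 33.2, 5.00, 10.9 and 4.81 TPM in Control mice and at 42.9, 8.73, 7.72, 6.93 and 6.70 TPM in Control + rFibcd1 mice. It was at 113, 18.2 and 49.7 TPM in LLC mice and at 26.2, 50.6, 24.6 and 7.50 TPM in LLC + rFibcd1 mice. For each 100 TPM of Adipoq a diaphragm held between 17.6 and 25.8 TPM of Plin1, although Plin1 itself spanned 23.4-fold. Cidec, the droplet fusion gene, was at 137, 109, 26.2, 30.0 and 24.0 TPM in Control mice and at 197, 35.7, 32.5, 28.6 and 31.9 TPM in Control + rFibcd1 mice. It was at 398, 72.9 and 192 TPM in LLC mice and at 92.0, 125, 118 and 27.6 TPM in LLC + rFibcd1 mice, so that here too Control mice 1 and 2 lay within the range of the tumor-bearing mice.

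Fabp4, the fatty acid carrier, had a floor. In Control mice it was at 1342, 1194, 565, 590 and 529 TPM and in Control + rFibcd1 mice at 1362, 588, 606, 688 and 572 TPM. In LLC mice it was at 2842, 841 and 1321 TPM and in LLC + rFibcd1 mice at 1152, 1390, 1060 and 570 TPM. Even Control mouse 5, with the lowest Adipoq (26.4 TPM), held 529 TPM, more than of any other gene of the 10. Pparg, the regulator, lay between 4.62 and 23.0 TPM, and its group medians were 5.18 TPM in Control, 5.45 TPM in Control + rFibcd1, 12.5 TPM in LLC and 7.65 TPM in LLC + rFibcd1 mice. The lipase genes came last. Lipe, hormone-sensitive lipase, spanned 6.42-fold, from 15.9 TPM in Control mouse 5 to 102 TPM in LLC mouse 1. Pnpla2, adipose triglyceride lipase, spanned 2.17-fold, with 271, 256, 241, 236 and 253 TPM in Control mice, 330, 219, 257, 212 and 209 TPM in Control + rFibcd1 mice, 454, 270 and 283 TPM in LLC mice, and 342, 308, 242 and 232 TPM in LLC + rFibcd1 mice. The 5 Control mice differed by at most 1.15-fold in Pnpla2 while differing 6.64-fold in Adipoq.

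The spread within groups was large beside that of other genes. The within-group SD of log2(TPM + 1) was 1.13 for Adipoq, 1.16 for Cfd, 1.21 for Plin1, 1.15 for Cidec, 1.06 for Retn and 0.85 for Lep, against a median of 0.149 over the 13305 genes tested. It was 0.66 for Lipe, 0.64 for Fabp4, 0.50 for Pparg and 0.26 for Pnpla2. Between 96.6% and 98.0% of the genes tested had a smaller SD than each of the adipokine and droplet coat genes, and 78.8% had a smaller one than Pnpla2. Differences between the 4 groups accounted for 20.8% (Lep) to 37.2% (Pparg) of the variance of each gene, beside a median of 43.1% over all genes tested. Most of the variance of each of the 10 was therefore among mice of one group.

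**Figure D2:**
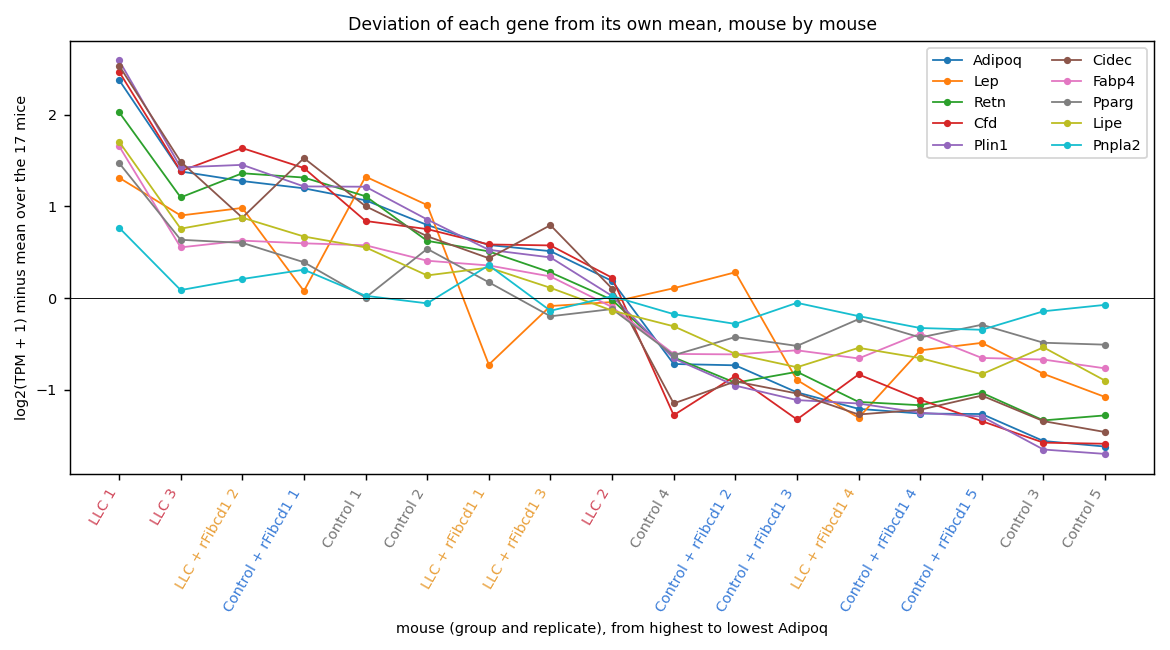
Deviation of log2(TPM + 1) of each gene from its own mean over the 17 mice, with mice ordered from highest to lowest Adipoq and their names colored by group. The lines run together from LLC mouse 1 (Adipoq at 436 TPM) to Control mouse 5 (26.4 TPM), with Pnpla2 the flattest and Lep the most irregular.

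The genes rose and fell together from mouse to mouse. Over the 17 mice, log2(TPM + 1) of Adipoq correlated most closely with Plin1 (Pearson's r = 0.997, Spearman's rho = 0.998). It was followed by Retn (r = 0.991, rho = 0.973), Cfd (r = 0.986, rho = 0.961), Cidec (r = 0.985, rho = 0.951), Fabp4 (r = 0.970, rho = 0.949) and Lipe (r = 0.970, rho = 0.946). Permutation of the mice gave p = 1e-05, the smallest that 100000 resamples can give, for both measures in these 6 genes and in Pparg (r = 0.895, rho = 0.863), with a Benjamini-Hochberg adjusted p over the 9 relations of 1.29e-05. Lep (r = 0.819, permutation p = 0.0001, adjusted p = 0.0001) had a rho of 0.784 (permutation p = 0.0003, adjusted p = 0.0003). Pnpla2 (r = 0.798, permutation p = 6e-05, adjusted p = 6.75e-05) was the furthest from Adipoq by r, with a rho of 0.787 (permutation p = 0.00029, adjusted p = 0.0003). These relations are between levels that share a library and a scaling to 1000000.

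The relations held without the 2 mice farthest from the Adipoq median, LLC mouse 1 and Control mouse 5, with r from 0.754 (Lep) to 0.996 (Plin1). They also held on deviations from the group means, with r from 0.702 (Pnpla2) to 0.997 (Plin1) and so were present within groups. Because of the gap in Adipoq they were also computed on either side of it. Among the 9 mice above the gap r was 0.996 for Plin1, 0.987 for Lipe, 0.973 for Cfd, 0.967 for Fabp4, 0.964 for Retn, 0.948 for Cidec, 0.910 for Pparg, 0.749 for Pnpla2 and 0.668 for Lep. Among the 8 mice below it r was 0.962 for Plin1, 0.896 for Retn, 0.807 for Cidec and 0.753 for Lep, but 0.606 for Cfd, 0.543 for Lipe and 0.328 for Fabp4, and -0.206 for Pparg and -0.221 for Pnpla2. The split was made after the values were seen and on Adipoq itself. Below the gap Adipoq spans only 26.4 to 50.1 TPM, a narrower range than above it, so the r of the 2 sides are not on equal terms. Whether r differed between the sides or between genes was not tested.

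The genes also differed in how far they moved with Adipoq. Per unit of log2(TPM + 1) of Adipoq, Plin1 changed by 1.06, Cfd by 1.04, Cidec by 1.00 and Retn by 0.89 units. Lipe changed by 0.58, Lep by 0.57, Fabp4 by 0.54, Pparg by 0.41 and Pnpla2 by 0.18 units. For Lep, which lies near or below 1 TPM in several mice, this slope depended on the added 1 TPM and was 0.90 on log2(TPM) without it, while that of Lipe was 0.59, of Fabp4 0.53, of Pparg 0.45 and of Pnpla2 0.18. The pair least alike among the 10 was Pnpla2 and Lep (r = 0.460).

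**Figure D3:**
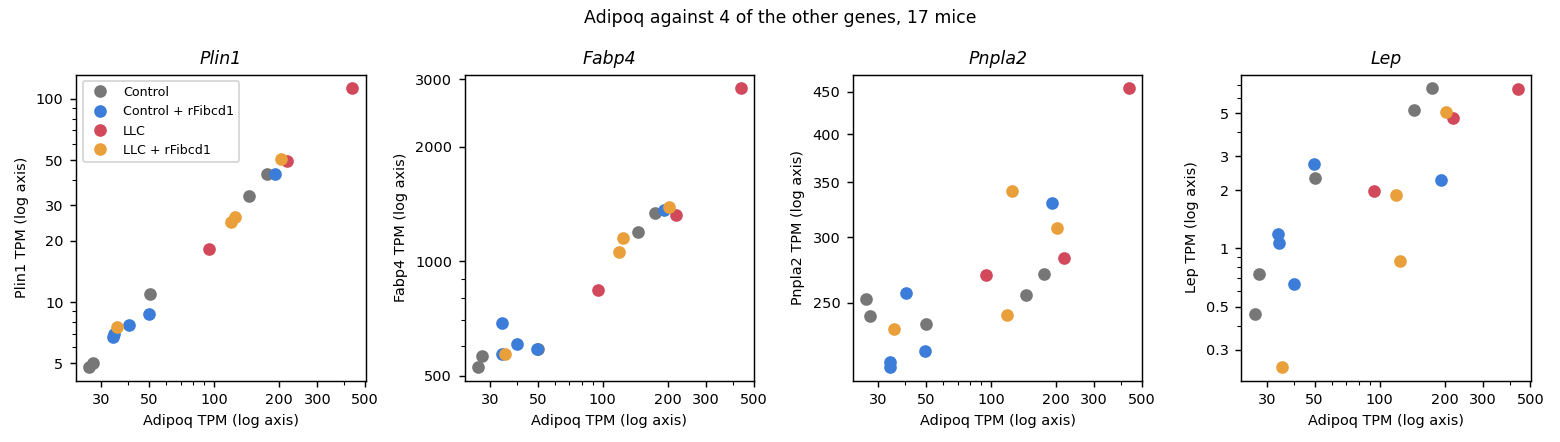
Adipoq TPM against Plin1, Fabp4, Pnpla2 and Lep TPM (both axes log) in the 17 mice, colored by group. Plin1 lies on a line with Adipoq (r = 0.997), Fabp4 and Pnpla2 flatten at low Adipoq, and Lep scatters most widely around its trend (r = 0.819).

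The first comparison was between LLC and Control mice, which differ in the tumor alone. Each of the 10 genes was higher in LLC mice on average, but none passed the test. Because the 10 moved together across mice, a shared direction is not 10 separate observations, here or in the later comparisons. A median over genes of such wide spread can also lie far from that of all genes by chance. The mean level was 250 ± 173 TPM (SD, n = 3) against 84.9 ± 70.2 TPM (n = 5) for Adipoq, 2335 ± 1677 against 685 ± 569 TPM for Cfd, and 60.2 ± 48.1 against 19.3 ± 17.5 TPM for Plin1. It was 4.46 ± 2.34 against 3.08 ± 2.77 TPM for Lep, and 336 ± 103 against 251 ± 13.8 TPM for Pnpla2. On the log2(TPM + 1) scale the difference was 1.72 ± 0.77 (SE) for Adipoq (limma, adjusted p = 0.0891), 1.93 ± 0.79 for Cfd (adjusted p = 0.0663), 1.83 ± 0.78 for Cidec (adjusted p = 0.0766) and 0.88 ± 0.34 for Pparg (adjusted p = 0.0552, the smallest of the 10). For Lep it was 0.62 ± 0.58 (adjusted p = 0.414). Their median difference was 1.15, against 0.16 over all genes tested. Under median-ratio scaling, which brings the median of all genes near 0 by construction, it was 0.95 against -0.01. Called at an adjusted p under 0.05 were 0 of the 10, where 35.8% of all genes were called, and 5 of the 10 had an unadjusted p under 0.05, where 48.3% of all genes did. The count over all genes was itself unsteady, at 4759 with every mouse, 2254 without LLC mouse 1 and 24 without LLC mouse 3. Dunn's test called 0, with 1 at an unadjusted p under 0.05. The groups did not overlap for 0 of the 10, against 40.2% of all genes.

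The count turned on single mice. Without LLC mouse 2, the LLC mouse with the lowest levels, 6 of the 10 were called (Adipoq, Cfd, Cidec, Fabp4, Pparg and Lipe). Without Control mouse 1 it was 3, without Control mouse 2 it was 2 and without Control + rFibcd1 mouse 1 it was 3, whereas leaving out any other mouse gave 0. Over all genes the same 4 refits called 4915, 4191, 4997 and 5244 genes.

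The same question was asked again in mice that had received rFibcd1, none of which was in the first comparison. LLC + rFibcd1 mice were higher than Control + rFibcd1 mice in all 10 genes on average, with a median difference of 0.69 on the log2 scale against 0.11 over all genes. Adipoq was at 120 ± 68.4 TPM (SD, n = 4) against 69.95 ± 68.4 TPM (n = 5), a difference of 0.91 ± 0.71 (SE), and Cfd at 1251 ± 795 against 674 ± 748 TPM, a difference of 1.13 ± 0.72. Lep was nearly level at 2.02 ± 2.15 against 1.58 ± 0.87 TPM, with a log2 difference of 0.04 ± 0.53 whose sign turned with the pseudocount, the scaling and single mice. None of the 10 was called by limma (smallest adjusted p = 0.303), and 0 had an unadjusted p under 0.05; over all genes, 8.06% were called and 28.5% had an unadjusted p under 0.05. Dunn's test gave 0 and 0.

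With the 7 tumor-bearing mice set against the 10 tumor-free mice, Cfd was the 1 gene of the 10 that passed. Its log2 level was higher by 1.47 ± 0.53 (SE; 95% interval 0.34 to 2.60, limma adjusted p = 0.0357). The intervals of Adipoq (1.24, 0.14 to 2.35, adjusted p = 0.0631), Plin1 (1.29, 0.11 to 2.47, adjusted p = 0.0690), Cidec (1.21, 0.09 to 2.33, adjusted p = 0.0732), Lipe (0.76, 0.11 to 1.40, adjusted p = 0.0546) and Pparg (0.57, 0.08 to 1.06, adjusted p = 0.0553) covered similar ground without a call. Fabp4 was higher by 0.65 ± 0.29 (adjusted p = 0.0816), Pnpla2 by 0.27 ± 0.12 (adjusted p = 0.0797), Retn by 1.00 ± 0.49 (adjusted p = 0.103) and Lep by 0.25 ± 0.39 (adjusted p = 0.615). All 10 were thus higher on average (median 0.88, against 0.13 over all genes), 1 was called where 44.8% of all genes were and 38.8% were called higher, and 8 had an unadjusted p under 0.05 where 53.5% of all genes did. That Cfd was called and Adipoq not does not show that they differ.

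The call of Cfd was not firm. It was lost when any of 10 of the 17 mice was left out, and without the filter on low values, under median-ratio scaling and with the log2 level of Adipoq as a covariate. The number called was 9 of 10, all but Lep, without Control + rFibcd1 mouse 1 and likewise without LLC + rFibcd1 mouse 4. It was 6 without Control mouse 1, 5 without Control mouse 2, 3 without LLC mouse 2 and 2 without LLC + rFibcd1 mouse 3. It was 1 without LLC + rFibcd1 mouse 1 and 0 without any of the other mice. Over all genes 5963 were called with every mouse, 6613 without Control + rFibcd1 mouse 1, 6443 without LLC + rFibcd1 mouse 4, and between 5446 and 6379 in the other refits that called 1 or more of the 10.

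**Figure D4:**
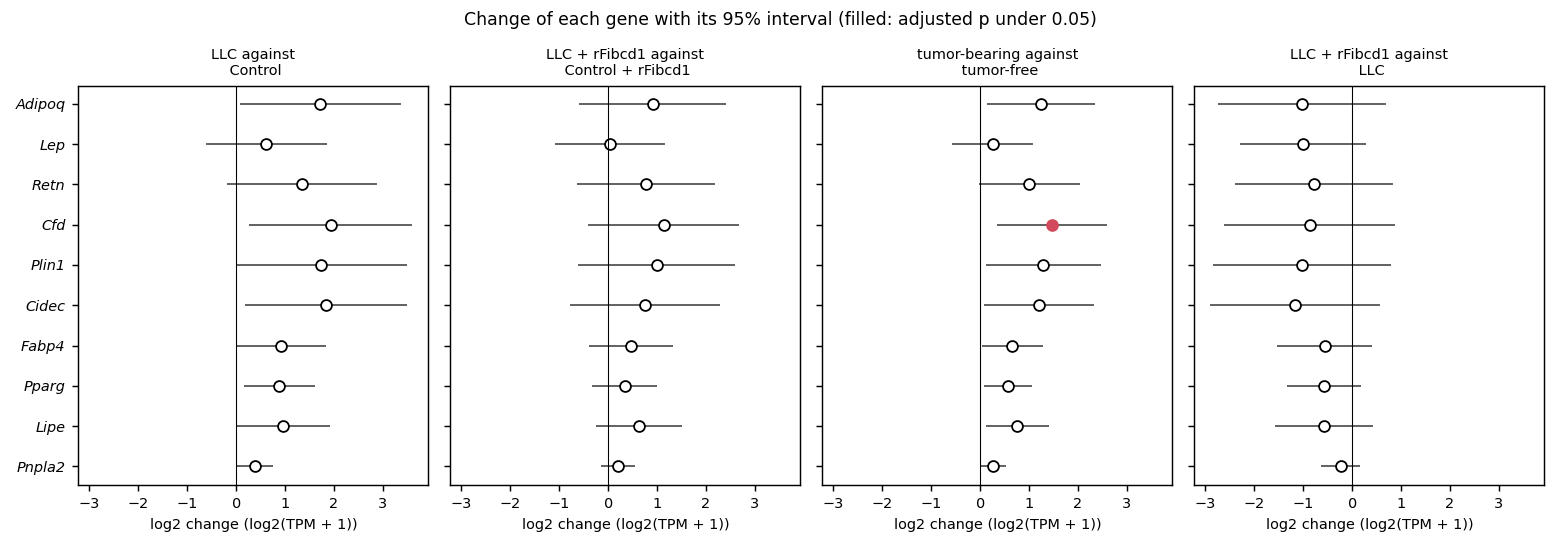
Difference of each gene on the log2(TPM + 1) scale with its 95% interval in 4 comparisons, filled where the adjusted p was under 0.05. Only Cfd in tumor-bearing against tumor-free mice (1.47) is filled; the first and last panels share the LLC mice.

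Among tumor-bearing mice, those given rFibcd1 had lower mean levels of each of the 10 genes than mock-injected ones, within the spread between mice. Adipoq was at 120 ± 68.4 TPM (SD, n = 4) in LLC + rFibcd1 against 250 ± 173 TPM (n = 3) in LLC mice, a log2 difference of -1.03 ± 0.80 (SE). For Cidec it was -1.17 ± 0.81, for Plin1 -1.03 ± 0.86, for Lep -1.01 ± 0.61, for Pparg -0.58 ± 0.36 and for Pnpla2 -0.23 ± 0.19. The median was -0.82, against -0.11 over all genes. Called by limma were 0 of 10 (smallest adjusted p = 0.292), with 0 at an unadjusted p under 0.05, and Dunn's test likewise gave 0 and 0; over all genes 0.113% were called and 22.7% had an unadjusted p under 0.05. The groups did not overlap for 0 of the 10, against 14.6% of all genes. The 95% interval for Adipoq, -2.74 to 0.69, allows a large fall as well as a rise. LLC mouse 1 had the highest level of 9 of the 10 genes, and without it the difference was -0.49 for Adipoq and 0.004 for Pnpla2.

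In tumor-free mice none of the 10 genes was called with rFibcd1, and the intervals were wide. The 95% interval of the log2 difference between Control + rFibcd1 and Control mice was -1.63 to 1.21 for Adipoq, -1.52 to 1.38 for Cfd and -1.50 to 0.64 for Lep, which allows a rise as well as a fall, and -0.38 to 0.28 for Pnpla2. The median difference was -0.16 against -0.06 over all genes, with 0 of 10 called by limma (smallest adjusted p = 0.927) and 0 at an unadjusted p under 0.05; 0% of all genes were called and 4.39% had an unadjusted p under 0.05, and Dunn's test gave 0 and 0 for the 10. Between LLC + rFibcd1 and Control mice 9 of the 10 were higher and 1 lower (median 0.47), with 0 called where 3.08% of all genes were and 0 at an unadjusted p under 0.05 where 19.9% were; Dunn's test gave 0 and 0. The interaction, which asks whether rFibcd1 acts differently with and without a tumor, was negative for all 10 (median -0.57), with 0 called by limma (smallest adjusted p = 0.698) and 0 at an unadjusted p under 0.05. Over all genes it was called for 0% and had an unadjusted p under 0.05 for 8.58%.

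Levels relative to Adipoq were then compared. Lep per 100 TPM of Adipoq was between 0.690 and 2.51 TPM (median 1.60) in the 7 tumor-bearing mice and between 1.17 and 5.52 TPM (median 3.32) in the 10 tumor-free mice. The ranges overlapped, the lowest tumor-free value being that of Control + rFibcd1 mouse 1. A lower median ratio in tumor-bearing than in tumor-free mice was not particular to Lep. It was 203.5 against 543.2 TPM for Pnpla2 and 5.987 against 11.75 TPM for Pparg. For Lipe it was 28.15 against 46.55 TPM and for Fabp4 888.1 against 1346 TPM. The medians of Retn and Cidec were also lower, and those of Plin1 and Cfd were higher. A gene that changes by less than 1 log2 unit per unit of Adipoq has a lower ratio where Adipoq is higher. Cfd per 100 TPM of Adipoq was between 900 and 1190 TPM (median 942) in tumor-bearing and between 618 and 1048 TPM (median 871) in tumor-free mice. With the log2 level of Adipoq as a covariate, an analysis added after seeing the data, the log2 level of Lep in limma differed by -0.55 ± 0.24 (SE) between tumor-bearing and tumor-free mice (adjusted p = 0.128; -0.94 with a pseudocount of 0.1 TPM, adjusted p = 0.107), Retn by -0.15 ± 0.08 (adjusted p = 0.208) and Cfd by 0.22 ± 0.11 (adjusted p = 0.191). None of the 9 genes was called in any comparison of this model, in which the number called of all 13304 genes was 1641 in tumor-bearing against tumor-free mice, 686 in LLC + rFibcd1 against Control + rFibcd1, 326 in LLC + rFibcd1 against Control, 13 in LLC against Control and 0 in the other comparisons. Lep passed without Control + rFibcd1 mouse 1 (-0.86, adjusted p = 0.0247).

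Other genes of the white fat cell varied with the 10. Of the 14 in a fixed list, 13 passed the filter, and 9 of these had r above 0.9 with Adipoq (median 0.950), among them the amino acid transporter Slc7a10 (0.985), the galectin Lgals12 (0.985), Mrap (0.979) and the amine oxidase Aoc3 (0.978). Plin4 (0.338) and Aqp7 (0.472) had the lowest r. Called in LLC against Control mice was 1 of the 13, Sncg, higher by 0.36 ± 0.13 (limma adjusted p = 0.0404), where 35.8% of all genes were called. In the comparison of tumor-bearing with tumor-free animals 4 were called, all higher: Sncg (0.40 ± 0.09), the fat cell adrenergic receptor Adrb3 (1.20 ± 0.46), Aoc3 (0.76 ± 0.29) and Acvr1c (0.58 ± 0.22), with adjusted p from 0.00375 to 0.0470. This count of 4 of 13 lies below the 38.8% of all genes called higher in the same comparison. Under median-ratio scaling, and when mitochondrially encoded genes were left out, only Sncg of the 4 was still called, the adjusted p of the others lying between 0.0619 and 0.0823, and Sncg was not called in LLC against Control mice under either (adjusted p = 0.323 and 0.122).

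Part of the fat synthesis genes ran with Adipoq as well. Of 15, 7 had r above 0.9, among them the triglyceride-forming Dgat1 (0.977) and Agpat2 (0.938), Acaca (0.925) and Fasn (0.917). Lpin1 (-0.544) and Gpam (-0.186), which take part in glycerolipid synthesis, had a negative r, that of Gpam being weak. In tumor-bearing mice Srebf1, the regulator of fatty acid synthesis, was higher by 0.61 ± 0.23 (limma adjusted p = 0.0422), while Gpam was lower by -0.52 ± 0.11 (adjusted p = 0.00396) and Lpin1 by -0.42 ± 0.11 (adjusted p = 0.00918), and the other genes were not called. That made 3 of 15, where 44.8% of all genes were called. Dgat1 differed by 0.70 ± 0.29 (adjusted p = 0.0624). In this comparison the call of Srebf1 was lost under both other scalings (adjusted p = 0.0843 with median ratios and 0.0708 without mitochondrially encoded genes), whereas Dgat2, the other diacylglycerol acyltransferase, was called lower under both (-0.37, adjusted p = 0.0142, and -0.29, adjusted p = 0.0452). In LLC against Control mice Srebf1 was higher by 1.01 ± 0.34 (limma adjusted p = 0.0324) and was called under both other scalings as well (adjusted p = 0.0475 and 0.0471). Lpin1 was lower there by -0.62 ± 0.17 (limma adjusted p = 0.0151) and likewise called under both (adjusted p = 0.0125 and 0.0128), and Gpam, at -0.42 ± 0.17 (adjusted p = 0.0623) as deposited, was called lower under both (adjusted p = 0.0201 and 0.0353).

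Partners of the lipases and droplet proteins were divided. The fat cell genes Prkar2b (r = 0.971), a regulatory subunit of protein kinase A, and Pde3b (r = 0.963), the phosphodiesterase through which insulin restrains lipolysis, followed Adipoq, whereas Plin5 (r = -0.532), the perilipin of oxidative muscle, and Lpl (r = 0.045) did not. Of the 12 genes, 2 were called between tumor-bearing and tumor-free mice, both higher, namely the monoglyceride lipase Mgll (0.44 ± 0.09, limma adjusted p = 0.00332) and Hilpda (0.19 ± 0.06, adjusted p = 0.0192), where 44.8% of all genes were called. In LLC against Control mice Mgll was higher (0.38 ± 0.14, adjusted p = 0.0431) and Plin5 lower (-0.36 ± 0.13, adjusted p = 0.0438). The call of Hilpda (adjusted p = 0.450 and 0.115) and that of Mgll in LLC mice (0.284 and 0.124) were lost under both other scalings. Lpl, the lipoprotein lipase gene, was at -0.15 ± 0.08 in LLC against Control mice (adjusted p = 0.167) and was called lower under both (adjusted p = 0.0308 and 0.0471). Under median-ratio scaling alone Abhd5 (-0.15, adjusted p = 0.0408) and Plin3 (-0.29, adjusted p = 0.0397) were called lower in tumor-bearing mice.

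Of 10 fat cell transcription factor genes, Cebpa had an r of 0.963 with Adipoq and no other exceeded 0.44. In tumor-bearing mice Rxra, the partner of Pparg, was higher by 0.15 ± 0.04 (limma adjusted p = 0.00955), Zfp423 was higher by 0.19 ± 0.05 (adjusted p = 0.0122) and Klf9 was lower by -0.30 ± 0.11 (adjusted p = 0.0353), 3 of 10 where 44.8% of all genes were called. Under median-ratio scaling Rxra was at -0.01 (adjusted p = 0.919) and Zfp423 at 0.07 (adjusted p = 0.329). None of the 10 was called in LLC against Control mice, in which 3 had an unadjusted p under 0.05 and Rxra the smallest adjusted p (0.0558), where 35.8% of all genes were called and 48.3% had an unadjusted p under 0.05. Under median-ratio scaling and without mitochondrially encoded genes, Klf9 (adjusted p = 0.0227 and 0.0398) and Ppara (adjusted p = 0.0329 and 0.0434) were called lower in LLC than in Control mice, and Ppara also in tumor-bearing mice (adjusted p = 0.0316 and 0.0490). On the receiving side, 3 of 7 adipokine receptor genes were higher in tumor-bearing mice, namely the proposed resistin receptor Cap1 (0.65 ± 0.15, limma adjusted p = 0.00429), the leptin receptor Lepr (0.30 ± 0.10, adjusted p = 0.0261) and the adiponectin receptor Adipor1 (0.06 ± 0.02, adjusted p = 0.0310), a share near the 38.8% of all genes called higher. Under median-ratio scaling the difference of Adipor1 turned to -0.10 (adjusted p = 0.140) and Lepr was not called (0.21, adjusted p = 0.0744). Among relatives of the 10, Retnla (1.39 ± 0.29, adjusted p = 0.00305), Retnlg (1.76 ± 0.39, adjusted p = 0.00404) and Fabp5 (0.44 ± 0.13, adjusted p = 0.0162), which macrophages, neutrophils and other cells make, were higher in tumor-bearing mice, 3 of 7 tested, which is again near the 38.8% of all genes. In LLC against Control mice 2 of the 7 were called higher and 1 lower, where 35.8% of all genes were called. The 1 called lower was the muscle fatty acid carrier Fabp3 (-0.30, limma adjusted p = 0.0330). Under median-ratio scaling 0 were called higher and 1 lower.

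**Figure D5:**
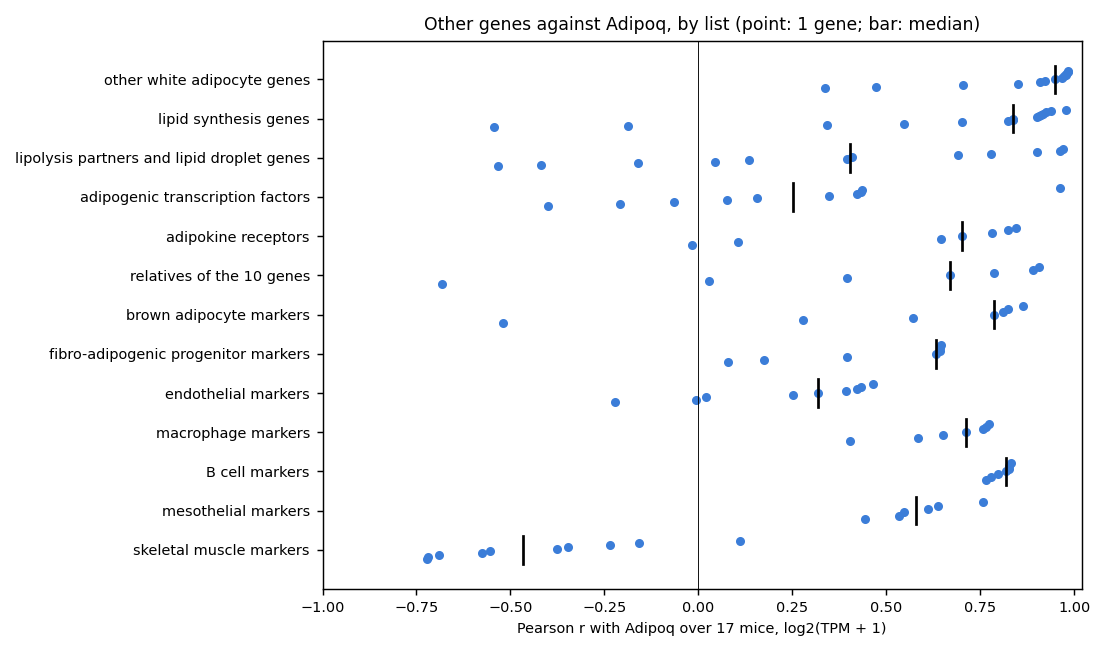
Pearson r with Adipoq over 17 mice for each gene of 13 fixed lists, with a bar at the list's median. White adipocyte genes (median 0.950) and lipid synthesis genes (0.838) lie to the right with B cell markers (0.818), and skeletal muscle markers (-0.466) to the left.

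Genes of other cells moved with the 10, and their part in the results was not tested. The 7 B cell markers, all 7 called higher in tumor-bearing mice where 38.8% of all genes were, had r of 0.767 to 0.833 with Adipoq, and their summed level was 2.42 to 97.5 TPM in Control, 3.44 to 137 TPM in Control + rFibcd1, 222 to 283 TPM in LLC and 18.0 to 280 TPM in LLC + rFibcd1 mice. The 7 macrophage markers had r of 0.403 to 0.774 and sums of 219 to 475 TPM in Control, 178 to 1554 TPM in Control + rFibcd1, 766 to 843 TPM in LLC and 313 to 828 TPM in LLC + rFibcd1 mice. The 6 mesothelial markers had r of 0.445 to 0.757, with sums between 26.8 and 286 TPM over all mice, and the 7 progenitor markers 0.078 to 0.644, with sums between 573 and 1175 TPM. None of the 9 endothelial markers exceeded 0.466 (sums of 243 to 361 TPM). In tumor-bearing mice 7 of the 9 endothelial, 3 of the 7 progenitor, 2 of the 7 macrophage and 1 of the 6 mesothelial markers were called higher. Under median-ratio scaling these counts were 3 (Pecam1, Tek and Esam), 2 (Ly6a and Pi16), 2 and 0, while all 7 B cell markers were still called. Of the 10 skeletal muscle markers 9 had a negative r, down to -0.723 for Mb, and 6 were lower in tumor-bearing mice by limma (median -0.14), where 5.98% of all genes were called lower.

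Brown fat genes were present in some mice. Ucp1, the uncoupling protein of brown fat, was named after its values were seen. It was at 16.5, 62.3, 0, 0 and 0 TPM in Control mice, at 128, 0, 0, 1.07 and 0 TPM in Control + rFibcd1 mice, at 214, 0.0243 and 5.96 TPM in LLC mice and at 0.0474, 112, 0.921 and 0 TPM in LLC + rFibcd1 mice. The 6 mice with more than 5 TPM were the 6 with the highest Adipoq. Of the 7 brown adipocyte markers 5 had r above 0.5 with Adipoq, and Dio2, higher by 0.64 ± 0.21 (limma adjusted p = 0.0226), was the 1 of 7 called between tumor-bearing and tumor-free mice, where 44.8% of all genes were called. Ppargc1a ran the other way (r = -0.519) and was lower in LLC than in Control mice (-1.34 ± 0.40, limma adjusted p = 0.0205). It was at 10.1 TPM or more in every mouse, also in those with Ucp1 at 0, so its level does not stand for brown fat alone.

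Over all genes tested, those most like each of the 10 were found by their r over the 17 mice, as a description. Outside the 10, Ifi27l2a (0.988), Slc7a10 (0.985), Lgals12 (0.985), Glb1l2 (0.983), Slc36a2 (0.981), Chst1 (0.980), Mrap (0.979), Aoc3 (0.978), Dgat1 (0.977) and Mmd (0.977) were nearest to Adipoq. Ifi27l2a was also nearest to Cfd (0.991) and Plin1 (0.986), Serpina3c to Cidec (0.995), A530016L24Rik to Retn (0.985), Slc7a10 to Fabp4 (0.985) and 1700037H04Rik to Lipe (0.984). Lep was nearest to Slc25a10 (0.930), the mitochondrial dicarboxylate carrier, Cd1d1 (0.909) and Tmem45b (0.904). Pparg was nearest to Cox6a1 (0.964), Net1 (0.962) and Cox8a (0.956), and Pnpla2 to Ctcflos (0.913), Cnnm2 (0.892) and Pex13 (0.887), none of which was among the 10 nearest to Adipoq.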

How the data were processed

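RNA-seq of 17 mouse diaphragms was deposited as a table of TPM values. The authors trimmed the reads, aligned them to GRCm38 (mm10) and obtained TPM with CLC Genomics Workbench. TPM sum to 1000000 per library, so a gene's level depends on all others. The 10 genes were taken by symbol, and all are named. The genes and gene lists were chosen with earlier results of these data known. From each list up to 4 genes with the smallest p in a comparison were named, and genes most alike by r. R 4.3.3 with limma 3.58.1 was fitted to log2(TPM + 1) of the 13305 genes that reached 1 TPM in 3 or more mice, in one model of the 4 groups (lmFit, contrasts.fit, eBayes with trend; 13 residual degrees of freedom), two-sided, with Benjamini-Hochberg adjustment over all genes. Fold changes on this scale understate those of low genes. All 10 genes passed the filter, so no separate test was needed. Tumor-bearing mice were weighted by group size. Coordinates are those of GENCODE M21, matched for 94.6% of symbols. Low TPM values fell within 0.02 of whole reads for 79.8% to 82.4% of values, so the read numbers are estimates and no count test was run. The model was tested on simulated data. Correlations used numpy 2.4.6 in Python 3.11.15 with two-sided permutation tests of 100000 resamples, exact below 10 mice. Alternatives were Dunn's test, a pseudocount of 0.1, no filter, median-ratio scaling, omission of mitochondrially encoded genes, a fit of the compared groups alone, a replicate block, each mouse left out and, added after seeing the data, Adipoq as a covariate and correlations on either side of the Adipoq gap.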

Additional observations from a re-analysis of the deposited data

Results flagged for a closer look

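Of 30 sets of values tested (10 genes in the 3 groups of 4 or 5 mice), 8 held a mouse far from the rest by Dixon's criterion, where chance gives about 1 in 20, and the sets share their mice. All 8 were Control + rFibcd1 mouse 1, which lay above the other 4 mice of its group: Adipoq at 192 TPM, Retn at 80.1 TPM, Cfd at 2009 TPM, Plin1 at 42.9 TPM, Cidec at 197 TPM, Fabp4 at 1362 TPM, Pparg at 10.4 TPM and Lipe at 49.4 TPM. In the same mouse Lep was at 2.25 TPM, below the 2.74 TPM of Control + rFibcd1 mouse 2, and Pnpla2 at 330 TPM, and Ucp1 was at 128 TPM. Without this mouse 9 of the 10 genes were called in tumor-bearing against tumor-free mice and 3 in LLC against Control mice. Over all genes the same refit called 6613 and 5244. What set it apart was not tested.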

How the results depend on the processing

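For LLC against Control mice the count of the 10 genes called lay between 0 and 6 when each mouse was left out in turn, and for tumor-bearing against tumor-free mice between 0 and 9; in the other comparisons it was 0 throughout. The 1 call in tumor-bearing against tumor-free mice, that of Cfd, became 0 without the filter on low values, under median-ratio scaling, with a replicate block and with Adipoq as a covariate. The log2 difference of Lep between LLC + rFibcd1 and Control + rFibcd1 mice turned to -0.142 with a pseudocount of 0.1 TPM, -0.056 under median-ratio scaling, -0.059 without mitochondrially encoded genes and -0.134 with the replicate block, and ran from -0.387 to 0.376 with a mouse left out. That of Pnpla2 between LLC + rFibcd1 and LLC mice ran from -0.37 to 0.004. Of 940 refitted differences of the 10 genes, 875 kept their direction and side of the threshold. This count says little about how steady the results were. Leaving out a mouse of neither group compared, or fitting the compared groups alone, gives the same difference, so its direction could not change. Only Cfd in tumor-bearing against tumor-free mice was called in the main fit, so the same side mostly means still not called. Among the 8 mice with lower Adipoq, which span a narrower range of it, exact permutation left Lep (r = 0.753, adjusted p = 0.0690), Cfd (0.606, 0.203), Cidec (0.807, 0.0517), Fabp4 (0.328, 0.566) and Lipe (0.543, 0.242) short of the threshold, and Pparg (-0.206) and Pnpla2 (-0.221) turned. The cause of these changes was not tested. Of the 22 pairs of mice that share a replicate number across groups, 4 had deviations correlated above 0.1 (range -0.459 to 0.485). Mice with different numbers were not compared, so whether the numbers pair mice was not tested. The replicate block gave 0 calls in every comparison. The precision is limited by 3 to 5 mice a group, and Lep rested on as few as 21 estimated reads in 1 mouse.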
